A study of Homo sapiens with 14 samples.

Results

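OVCAR-3 cells, an established line of human high-grade serous ovarian carcinoma, were exposed to GSK-J4 or to its control compound GSK-J5 for 48 h or for 72 h. The question addressed here is how the effect of GSK-J4 over GSK-J5 at 72 h differed from the effect at 48 h, gene by gene. The comparison rests on 4 of the 14 samples of the series. Each sample holds replicates 1 and 2, so 8 of 22 libraries entered: 2 of GSK-J5 at 48 h, 2 of GSK-J4 at 48 h, 2 of GSK-J5 at 72 h and 2 of GSK-J4 at 72 h. Both compounds were used at 2.5 µM, in RPMI medium that the labels call stripped, and all 8 libraries belong to the first of 2 library sets. The labels list no untreated library, and each value is therefore GSK-J4 relative to GSK-J5. Nothing in the labels says that the replicates were separate cultures, so the p-values measure the spread between these libraries, which may be technical.

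GSK-J4 is the cell-permeable ethyl ester of an inhibitor of KDM6A (UTX) and KDM6B (JMJD3). These enzymes remove methyl groups from lysine 27 of histone H3, the mark that Polycomb repressive complex 2 (PRC2) places through its catalytic subunits EZH2 and EZH1. GSK-J5 is the ester of a pyridine regioisomer that binds the enzymes poorly. Several stress pathways recur in the results. Heat shock factor 1 (HSF1) binds repeated GAA and TTC units, the heat shock element, before chaperone genes when unfolded protein accumulates in the cytosol. ATF4 is the transcription factor that is translated when the kinases of the integrated stress response act on eIF2, and it drives genes for amino acid import and synthesis. NRF2 drives genes of glutathione and thioredoxin metabolism.

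Promoter letters are shown for 3 heat shock genes with large differences and for CHAC1, an ATF4 target whose effect changed sign, because the results below turn on these families. Each line holds the 250 bases before the annotated start on the gene's own strand, 5′ to 3′, taken from RefSeq on GRCh38.p14. Capitals in the first 3 mark pairs of heat shock units, GAANNTTC or TTCNNGAA, and capitals in CHAC1 mark the ATF4 composite element TGATGNAA, each searched on both strands, with overlapping matches merged. These starts are RefSeq's, and for HSPA1A, HSPA8 and CHAC1 they lie inside the gene as GENCODE 29, the source of the gene coordinates given below, bounds it. The positions are chr6:31815293-31815542 on the plus strand for HSPA1A, chr1:161524290-161524539 on the plus strand for HSPA6, chr11:123062137-123062386 on the minus strand for HSPA8 and chr15:40953221-40953470 on the plus strand for CHAC1.
HSPA1A: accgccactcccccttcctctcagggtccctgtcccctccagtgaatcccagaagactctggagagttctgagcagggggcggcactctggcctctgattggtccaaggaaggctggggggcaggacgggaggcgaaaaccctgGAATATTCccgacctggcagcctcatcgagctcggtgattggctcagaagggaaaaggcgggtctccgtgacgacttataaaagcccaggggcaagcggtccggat
HSPA6: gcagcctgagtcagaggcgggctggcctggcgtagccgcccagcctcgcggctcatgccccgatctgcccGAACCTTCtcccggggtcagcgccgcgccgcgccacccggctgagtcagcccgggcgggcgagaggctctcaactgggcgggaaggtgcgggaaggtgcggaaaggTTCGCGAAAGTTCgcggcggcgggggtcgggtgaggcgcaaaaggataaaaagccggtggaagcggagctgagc
HSPA8: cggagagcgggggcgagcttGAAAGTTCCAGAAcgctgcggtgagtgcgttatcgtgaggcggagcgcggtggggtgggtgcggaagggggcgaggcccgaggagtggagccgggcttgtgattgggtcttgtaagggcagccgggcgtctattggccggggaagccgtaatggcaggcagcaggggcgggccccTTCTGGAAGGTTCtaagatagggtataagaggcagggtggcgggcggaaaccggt
CHAC1: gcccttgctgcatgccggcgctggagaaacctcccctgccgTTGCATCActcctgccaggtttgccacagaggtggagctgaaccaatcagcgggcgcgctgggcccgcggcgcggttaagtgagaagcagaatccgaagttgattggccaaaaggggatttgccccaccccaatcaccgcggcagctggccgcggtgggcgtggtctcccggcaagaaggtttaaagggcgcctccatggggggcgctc

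HSPA1A held 1 pair, HSPA6 held 3 and HSPA8 held 4 in the 300-base window that runs on past the start. A pair stood in the windows of 9 of the 23 chaperone genes with a promoter in the table, and in 13.7% of all 27305 promoters. By call, 6 of 17 with a higher difference and 2 of 5 not called held one. The longer form with 3 units, GAANNTTCNNGAA or TTCNNGAANNTTC, which contains the pair, was in 4 of those 23 and in 0.487% of all promoters. TGATGNAA was in 6 of 29 windows of the ATF4 list and in 3.67% of all. These matches describe the letters of the window, and BAG3, whose effect also changed sign, had no pair in its window.

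Total counts ran from 24305501 to 30715253 per library. At least 10 counts were found for 16425 to 16576 genes in the GSK-J5 libraries, 15406 and 15606 in GSK-J4 at 48 h, and 14680 and 14714 in GSK-J4 at 72 h. The 20 most abundant genes took at most 8.12% of counts in GSK-J5, 8.64% and 9.21% in GSK-J4 at 48 h, and 12.7% and 13% in GSK-J4 at 72 h. Mitochondrial ribosomal RNA took 0.0322% to 0.0736% of counts in GSK-J5 and 0.275% to 0.415% in GSK-J4. Mitochondrial coding genes took 0.428% to 1.03% in GSK-J5, 0.692% and 0.496% in GSK-J4 at 48 h, and 0.280% and 0.207% in GSK-J4 at 72 h. All 8 OVCAR-3 markers (PAX8, MUC16, WT1, KRT7, EPCAM, CDH1, MECOM and CLDN3) were detected in all 8 libraries. Their summed level was 2799 to 2970 CPM, the library-scaled count, in GSK-J5, 3233 and 3285 in GSK-J4 at 48 h, and 4316 and 4818 in GSK-J4 at 72 h. KRT7 carried that rise (584 and 569 CPM against 1631 and 1459 at 48 h, and 575 and 562 against 2354 and 2636 at 72 h), and of the 8 markers 5 were lower and 1 higher at 48 h, 3 and 2 at 72 h. The 7 fibroblast markers summed to 40.0 to 50.1 CPM in GSK-J5, 11.9 and 13.3 in GSK-J4 at 48 h, and 7.33 and 9.59 in GSK-J4 at 72 h, nearly all of it COL1A1, with 4 to 6 of the 7 under 10 counts in every library. The 6 leukocyte and 6 endothelial markers summed to at most 1.55 and 4.8 CPM. The part of these shifts in the results below was not tested. In bulk RNA, fewer cells of a kind and less RNA per cell cannot be told apart.

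The effect of GSK-J4 differed between the 2 times at over 1 in 4 of the measured genes, and with time the GSK-J4 libraries moved more than the GSK-J5 libraries. Of 17090 genes tested, 4621 passed an adjusted p of 0.05 in edgeR's quasi-likelihood test of the difference, which is 27.0%. The difference is the log2 effect at 72 h minus the log2 effect at 48 h. It was higher for 2030 genes (11.9%) and lower for 2591 (15.2%), and 1261 of the called genes differed by more than 1 on the log2 scale. The median difference over all genes was -0.03, with a median SE of 0.22. All 4621 had the same sign in replicate 1 alone and in replicate 2 alone. That adds no separate support, since the same 8 libraries made the calls. The effect itself was called for 59.0% of genes at 48 h (4980 higher, 5098 lower) and for 71.0% at 72 h (5727 higher, 6404 lower). Within the GSK-J4 libraries, 40.0% of genes changed from 48 h to 72 h (3102 higher, 3739 lower). Within GSK-J5 the edgeR test called 0 genes, or 0%, with 891 at an unadjusted p below 0.05, and DESeq2 and limma voom also called 0. The median absolute change with time was 0.44 in GSK-J4 and 0.12 in GSK-J5 on the log2 scale.

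**Figure D1:**
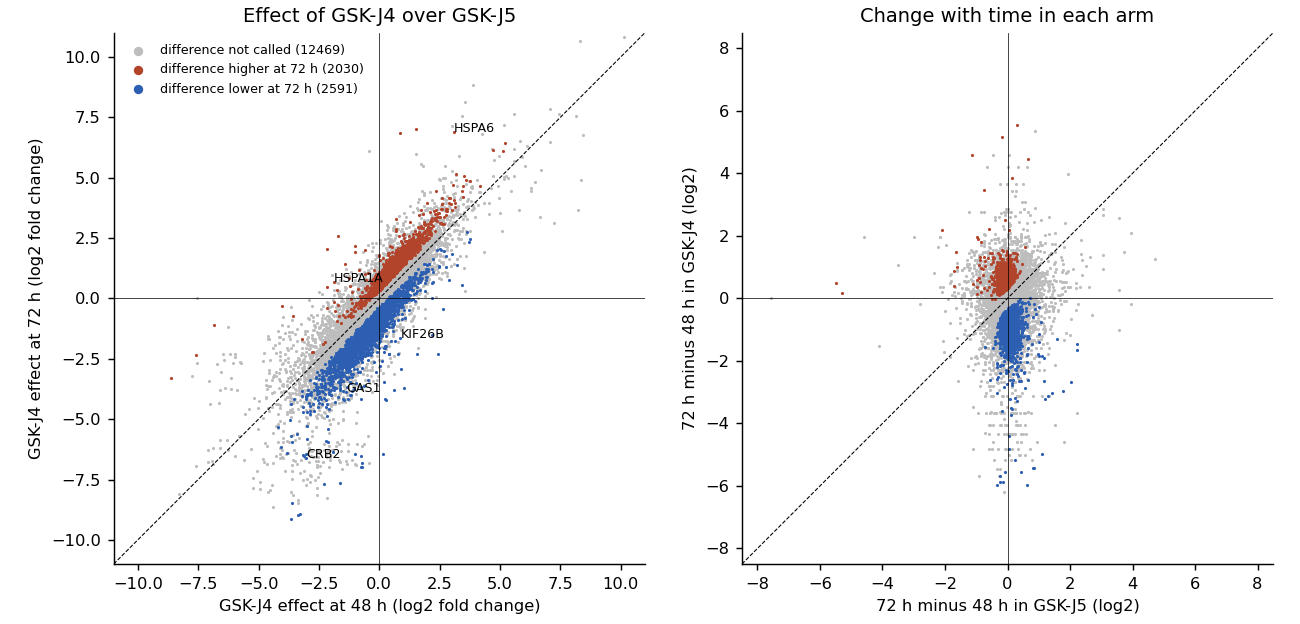
Left, log2 effect of GSK-J4 over GSK-J5 at 48 h (x) and 72 h (y) for each of 17090 genes. Right, log2 change from 48 h to 72 h in GSK-J5 (x) and GSK-J4 (y). Dashed lines mark equal values, and the 2030 genes with a higher and 2591 with a lower difference spread along the vertical axis of the right panel, the GSK-J4 axis.

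The effects at the 2 times, which share no library, had a Pearson correlation of 0.86 across the 17090 genes, which are not independent replicates. Most differences enlarged an effect that already had that direction. By the signs of the estimates, 1709 called genes (37.0%) had a larger rise at 72 h, with a median effect of 0.67 at 48 h and 1.36 at 72 h. A further 1773 (38.4%) had a larger fall, from a median of -0.73 to -1.73. The effect was smaller at 72 h for 203 genes with a rise and for 67 with a fall. It changed sign from higher to lower for 615 genes and from lower to higher for 254. Both effects were called, in opposite directions, for 137 and 41 of these.

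Most of the genes with the lowest differences had a fall at 48 h already, and a larger one at 72 h. CRB2 (chr9:123356170-123380324), a Crumbs polarity protein, was at 10.7 and 14.6 CPM in GSK-J5 and 1.6 and 1.48 in GSK-J4 at 48 h, and at 16.4 and 14.8 in GSK-J5 and 0.157 and 0.153 in GSK-J4 at 72 h. The last 2 values stand on 6 counts over both libraries. Its effect went from -3.03 to -6.61, a difference of -3.58 (SE 0.44, 95% interval -4.54 to -2.62, edgeR adjusted p = 0.000416). LINC02600, a long noncoding RNA, had 322 counts over the GSK-J5 libraries of 72 h and 2 over those of GSK-J4, a ratio of 101 with a 95% counting interval of 27.7 to 837. S1PR5, a sphingosine 1-phosphate receptor, had a difference of -2.48 and ZFHX2, a homeobox gene, one of -2.44. TSPEAR-AS2 (-2.88) is an antisense gene, and without a stated strand setting its counts cannot be told from those of its partner. On the scale of all 10 libraries, the 72 h log2 ratios of the first 2 pairs were -4.78 and -4.14 for S1PR5. They were -3.60 and -5.18 for ZFHX2, and -4.88 and -3.75 for TSPEAR-AS2. In replicate 3, from the second library set, the ratios of these genes were 0.14, -0.12 and 0.28. There CRB2 was at -1.39 and LINC02600 at -0.88. KIF26B (chr1:245154985-245709431), a kinesin-family protein, went the other way first: 1.48 and 2.17 CPM in GSK-J5 against 3.33 and 3.39 in GSK-J4 at 48 h, then 2.64 and 1.89 against 0.629 and 0.815 at 72 h. Its difference was -2.52 (SE 0.44). TRIL (-2.25), a Toll-like receptor 4 accessory protein, and CRIM1 (-1.31), a membrane protein that binds bone morphogenetic proteins, also rose at 48 h and fell at 72 h.

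Cytosolic chaperone genes form the clearest group whose effect turned upward. Of 25 genes tested on the heat shock list, the difference was higher for 20 and lower for 0, against 11.9% and 15.2% of all genes. The median difference was 0.88, from a median effect of -0.01 at 48 h to 0.84 at 72 h. The inducible HSP70 gene HSPA1A (chr6:31815464-31817946) was at 17.3 and 19.9 CPM in GSK-J5 and 5.03 and 4.98 in GSK-J4 at 48 h, and at 16.8 and 18.8 in GSK-J5 and 26.3 and 30.5 in GSK-J4 at 72 h. The GSK-J4 libraries were thus the lowest at 48 h and the highest at 72 h, with no overlap between any of these groups and GSK-J5. The effect went from -1.89 (SE 0.14) to 0.68 (SE 0.13), a difference of 2.57 (SE 0.19, interval 2.16 to 2.98, edgeR adjusted p = 0.000171). Its near-identical neighbour HSPA1B showed the same course, from -1.75 to 0.37, and reads of the pair may have been split or lost in counting.

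HSPA6 (chr1:161524540-161526910), a strictly inducible HSP70 gene, had the largest difference among genes with a mean of at least 1 on the log2 CPM scale. It was at 0.230 and 0.0867 CPM in GSK-J5 and 1.46 and 1.2 in GSK-J4 at 48 h, and at 0.290 and 0.195 in GSK-J5 and 30.1 and 28.4 in GSK-J4 at 72 h. Only the GSK-J4 libraries of 72 h exceeded 2 CPM, so these alone brought HSPA6 above the mean of 1 log2 CPM. The GSK-J5 values rest on few counts, as 3 counts correspond to at most 0.123 CPM. The difference was 3.81 (SE 0.62, interval 2.44 to 5.18, edgeR adjusted p = 0.00147), and without GSK-J5 48 h replicate 1 it was 3.01 with an adjusted p of 0.0588. The constitutive HSP70 gene HSPA8 fell from 1365 and 1315 CPM in GSK-J5 to 753 and 687 in GSK-J4 at 48 h. At 72 h it stood at 1183 and 1190 in GSK-J5 and 1514 and 1575 in GSK-J4, a difference of 1.28 (SE 0.12). BAG3, a co-chaperone of HSP70, went from an effect of -0.45 to 1.07, and HSP90AB1, the constitutive cytosolic HSP90, from -0.38 to 0.75. HSP90AA1, the inducible cytosolic HSP90, was 2.23-fold lower at 48 h (2932 and 2924 against 1303 and 1322 CPM), and at 72 h the GSK-J4 values of 2458 and 2481 lay just below the 2574 and 2522 of GSK-J5. DNAJB1, the HSP40 partner of HSP70, was raised already at 48 h and more so at 72 h (0.91 to 2.09). The small chaperone HSPB1 was lower at both times, with effects of -1.33 and -0.54. HSF1 itself had effects of 0.94 and 1.52. Under library totals alone the call of HSF1 was lost, and the list median was 0.53.

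**Figure D2:**
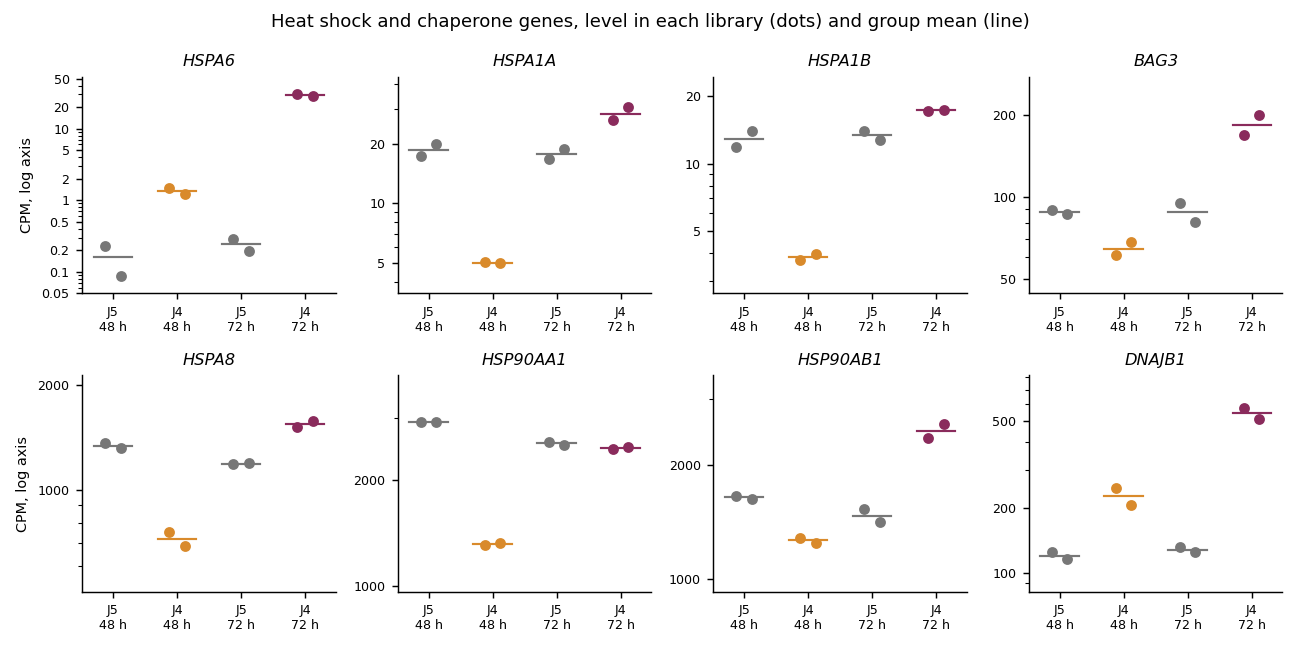
Level in CPM (log axis, a range of its own per panel) of 8 chaperone genes in each of the 8 libraries (dots) with the group mean (line), J5 in grey and J4 in colour. HSPA1A, HSPA1B, BAG3, HSPA8 and HSP90AB1 lie below GSK-J5 at 48 h and above it at 72 h in GSK-J4, while HSPA6 and DNAJB1 are above at both times.

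The proteasome moved with the chaperones. Of 31 subunit genes, 23 had a higher difference and 0 a lower one, against 11.9% and 15.2% of all genes. The median effect was 0.14 at 48 h and 0.68 at 72 h. The median difference of 0.55 was 0.20 under library totals alone. PSMD4, a ubiquitin receptor of the regulatory particle, was at 257 and 257 CPM in GSK-J5 against 438 and 354 in GSK-J4 at 48 h, and at 259 and 236 against 683 and 615 at 72 h. Of 27 autophagy and lysosome genes, 7 had a higher and 3 a lower difference. SQSTM1 (p62), the receptor that carries ubiquitin-tagged cargo, had effects of 1.34 and 2.17, WIPI1 of 1.47 and 2.41, and ULK1, the kinase that starts autophagy, of 0.24 and -0.58. The median difference of this list, 0.26, was -0.10 under library totals alone. Of 25 genes for chaperones and the unfolded protein response of the endoplasmic reticulum, 3 were higher and 2 lower, a share of higher calls near the 11.9% of all genes, with a median difference of -0.01. HSP90B1, the HSP90 of that compartment, was among the 3, with a difference of 0.72.

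Genes of the ATF4 list moved in both directions, more of them lower than higher. ATF4 itself, ATF3 and SLC3A2 had a larger rise at 72 h, whereas SLC7A5, CHAC1 and several enzyme genes had a lower effect at 72 h than at 48 h. Of 38 genes on the list, the difference was higher for 6 and lower for 14, against 11.9% and 15.2% of all genes. The share of higher calls thus lay near that of all genes, and only the lower calls stood well above theirs. The median was -0.53, and at 48 h the effect was higher for 33, against 4980 of all 17090 genes. ATF4 mRNA was at 230 and 239 CPM in GSK-J5 and 455 and 387 in GSK-J4 at 48 h, and at 259 and 238 against 783 and 675 at 72 h. Its difference of 0.71 (SE 0.15, edgeR adjusted p = 0.00526) was not called under library totals alone. ATF3, a stress-induced repressor, stood at 9.38 and 10.9 CPM in GSK-J5 and 370 and 335 in GSK-J4 at 48 h, and at 8.99 and 8.96 against 598 and 632 at 72 h. SLC3A2, the heavy chain of the amino acid exchangers, was 8.5-fold higher at 48 h and 17.1-fold higher at 72 h.

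The light chains SLC7A5 and SLC7A11, which pair with SLC3A2, had lower differences. SLC7A5, the light chain of the large neutral amino acid exchanger, had a 3.97-fold rise at 48 h and a 1.86-fold rise at 72 h, a difference of -1.09 (SE 0.13, interval -1.38 to -0.81). SLC7A11, the light chain of the cystine-glutamate exchanger, was at 16.5 and 17.5 CPM in GSK-J5 and 19.4 and 21.9 in GSK-J4 at 48 h, and at 17.5 and 18.7 against 9.49 and 8.36 at 72 h. The groups lay close at 48 h, and at 72 h both GSK-J4 libraries lay well below GSK-J5, a difference of -1.30 (SE 0.17). PSPH, the last enzyme of serine synthesis, had a difference of -1.20 and CBS, which starts the conversion of homocysteine to cysteine, one of -1.29. CHAC1 (chr15:40952962-40956519), which degrades glutathione, was at 13.7 and 14 CPM in GSK-J5 and 35.1 and 29.3 in GSK-J4 at 48 h, and at 19.1 and 16.7 against 15.0 and 10.7 at 72 h. The effect of 1.22 at 48 h became -0.48 at 72 h, a difference of -1.70 (SE 0.23, interval -2.19 to -1.20, edgeR adjusted p = 0.000586). Several strong targets did not pass the test of the difference: DDIT3 (CHOP) had effects of 4.53 and 3.95, TRIB3 of 5.14 and 5.03, and GDF15 of 8.14 and 7.56, with an interval of the last difference of -1.07 to -0.09 and an edgeR adjusted p of 0.0781.

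**Figure D3:**
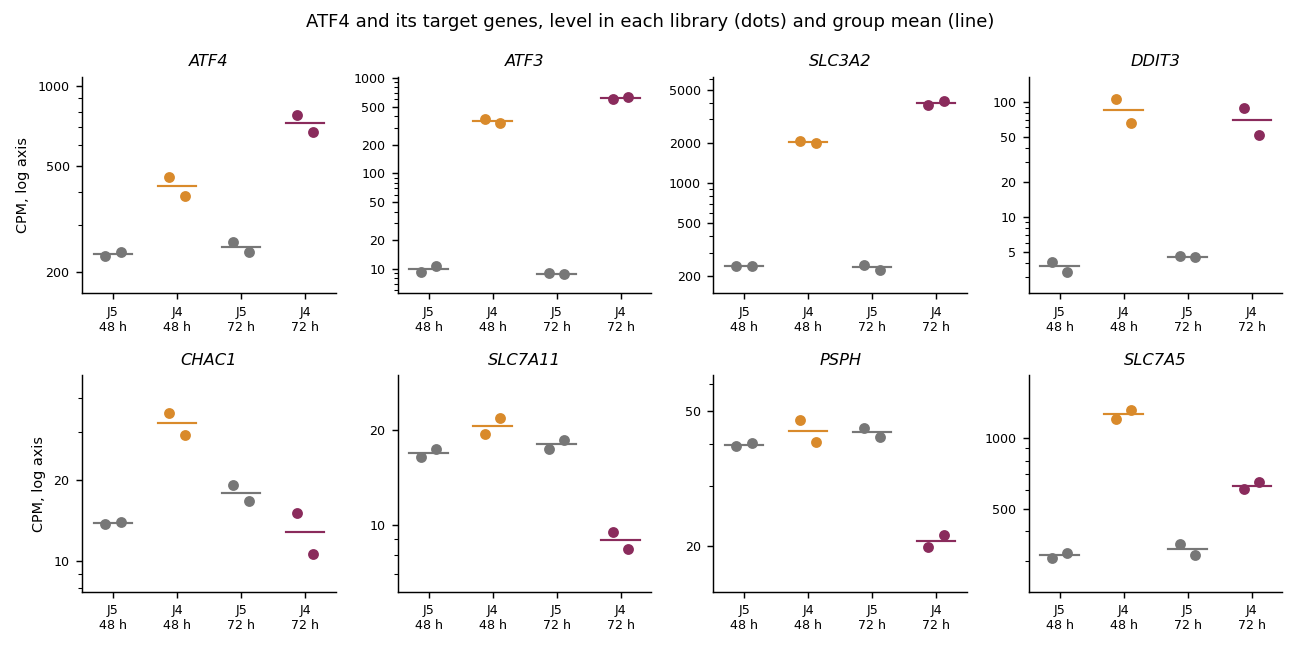
Level in CPM (log axis, a range of its own per panel) of ATF4 and 7 of its target genes in each of the 8 libraries (dots) with the group mean (line), J5 in grey and J4 in colour. ATF4, ATF3 and SLC3A2 are higher in GSK-J4 at 72 h than at 48 h, whereas CHAC1, SLC7A11, PSPH and SLC7A5 are lower at 72 h.

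The cytosolic aminoacyl-tRNA synthetases, which load amino acids onto tRNA, did not follow the light chains. Against 11.9% higher and 15.2% lower of all genes, 10 of these 20 had a higher difference and 0 a lower one. Their median difference of 0.42 was 0.07 under library totals alone and -0.01 in a fit with 2 more libraries. KARS1, the lysine enzyme, was 1.91-fold higher at 48 h and 4.14-fold higher at 72 h.

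Genes of the translation machinery had a larger rise at 72 h. Of 34 cytosolic ribosomal protein genes, 30 had a higher difference and 0 a lower one, with median effects of 0.81 at 48 h and 1.89 at 72 h. RPL32 was at 577 and 535 CPM in GSK-J5 and 1116 and 959 in GSK-J4 at 48 h, and at 551 and 538 against 2285 and 2285 at 72 h, a difference of 1.17 (SE 0.13). Reads of ribosomal protein genes can be shared with their processed pseudogenes. Of 23 ribosome biogenesis genes, 16 were higher and 2 lower. NPM1, the nucleolar chaperone of ribosome assembly, had effects of 0.26 and 1.41, whereas POLR1A, the catalytic subunit of RNA polymerase I, had effects of -0.74 and -1.45, a difference not called with the transcript length offset. Nuclear genes of oxidative phosphorylation had 16 of 31 higher and 0 lower, with median effects of 0.25 and 0.86, and COX4I1, a subunit of cytochrome c oxidase, went from 1.55-fold to 2.99-fold higher. Of the 13 protein genes of the mitochondrial genome, edgeR called 0 (1 at an unadjusted p below 0.05), and DESeq2 and limma voom called 0 as well. Their median difference was -0.90 in replicate 1 and 0.10 in replicate 2. Of 26 glycolysis and hypoxia genes, 10 were higher and 3 lower, against 11.9% and 15.2% of all genes. In the most highly expressed of 5 bins of protein-coding genes, 36.1% were higher and 16.3% lower. Among them GPI, the isomerase of glucose 6-phosphate, had effects of -0.14 and 0.65, and PFKFB3, which makes the activator of phosphofructokinase, had effects of -0.49 and -1.37. Under library totals alone the median differences shrank. They went from 0.40 to 0.04 for glycolysis and hypoxia and from 0.59 to 0.23 for ribosome biogenesis. For nuclear oxidative phosphorylation the median went from 0.62 to 0.27, and for ribosomal proteins from 1.01 to 0.66.

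Most NRF2 targets had a higher difference. Of 25 NRF2 targets, 18 had a higher difference and 1 a lower one, against 11.9% and 15.2% of all genes. The median effects of the list were 0.57 and 1.33. GCLC, the catalytic subunit of the enzyme that limits glutathione synthesis, was at 31.7 and 33 CPM in GSK-J5 and 160 and 167 in GSK-J4 at 48 h, and at 31.0 and 29.5 against 277 and 304 at 72 h. TXNRD1, thioredoxin reductase, had effects of 1.37 and 2.25, and TKT, transketolase of the pentose phosphate pathway, of 0.70 and 1.89. NQO1, a quinone reductase, had a difference of 0.72 (SE 0.12). Among the 18, AKR1B10 had no count in GSK-J4 at 48 h and under 1 CPM elsewhere, so its fitted fold is not given, and the list median of 0.83 is the same with that gene at its bound. Of 8 metallothionein and zinc transporter genes, 4 were higher and 0 lower, against 11.9% and 15.2% of all genes. The median difference of these 8 was 0.91, with 0.56 under library totals alone and 0.18 in a fit of all 10 libraries. MT2A, which binds zinc, was at 34.5 and 29.7 CPM in GSK-J5 against 1197 and 1149 in GSK-J4 at 48 h, and at 25.8 and 23.3 against 2035 and 2269 at 72 h. The metallothioneins resemble each other closely, so counts may have been split among them. SLC30A2, a zinc exporter, had effects of 4.73 and 6.15.

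Of 17 NF-kB and cytokine genes tested, 5 were higher and 1 lower, against 11.9% and 15.2% of all genes, with 11 not called. The median difference of 0.89 varied with the setting: it was 0.36 in replicate 1 and 0.69 in replicate 2, 0.54 under library totals, 0.28 in all 10 libraries, 0.41 among genes with a mean of at least 1 log2 CPM, 0.51 and 0.54 without GSK-J5 48 h replicate 1 or 2, and 0.42 without GSK-J4 72 h replicate 2. NFKBIA, the inhibitor that NF-kB itself induces, was at 106 and 102 CPM in GSK-J5 and 214 and 206 in GSK-J4 at 48 h, and at 92.0 and 90.0 against 500 and 517 at 72 h. Its difference of 1.47 had an SE of 0.11. The neutrophil chemokines CXCL8 (1.98 to 3.94) and CXCL1 (0.53 to 2.14) and the inhibitor TNFAIP3 (1.42 to 2.36) were also called. EDN2, an endothelin peptide of another list, was at 4.01 and 3.90 CPM in GSK-J5 and 47.4 and 48.9 in GSK-J4 at 48 h, and at 4.09 and 3.65 against 110 and 120 at 72 h. For CXCL8 and TNFAIP3 the GSK-J5 level was also lower at 72 h, going from 2.30 and 1.48 to 1.29 and 0.717 CPM and from 9.05 and 8.5 to 6.67 and 5.08 CPM, though neither change was called.

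Receptors, ligands and mediators of the hedgehog, Notch and Wnt pathways held the lowest median difference of the 35 gene lists, -0.86. Of the 29 genes tested on this list, 16 were lower and 0 higher, against 15.2% and 11.9% of all genes. GAS1 (chr9:86944363-86947189), a co-receptor of hedgehog, was at 442 and 507 CPM in GSK-J5 and 184 and 179 in GSK-J4 at 48 h, and at 623 and 569 against 48.8 and 32.1 at 72 h. The effect went from 2.61-fold lower to 14.8-fold lower, a difference of -2.50 (SE 0.24, interval -3.04 to -1.95, edgeR adjusted p = 0.000388). The hedgehog transducer SMO (-1.03), its brake PTCH1 (-1.05) and the transcription factor GLI2 (-1.64) were lower too. GLI1, the pathway's own target, rose 7.43-fold at 48 h and had an effect of 0.75 at 72 h that was not called. Its difference of -2.15 was -1.81 without GSK-J5 48 h replicate 1, with an adjusted p of 0.0562. Among Notch genes, the receptor NOTCH3 was at 401 and 462 CPM in GSK-J5 and 172 and 189 in GSK-J4 at 48 h, and at 476 and 456 against 55.8 and 41.0 at 72 h. NOTCH2 (-1.32) and the ligand DLL1 (-2.31) were lower, while the target HES1 had effects of 1.25 and 1.5 and a difference that was not called. FZD7, a Wnt receptor, had effects of -0.92 and -2.41. In replicate 3 of 72 h the log2 ratio was 0.18 for FZD7, -0.54 for GAS1 and -0.21 for NOTCH3, on the scale of all 10 libraries.

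Lineage and epithelial genes moved in both directions, as did all genes tested, with 11.9% higher and 15.2% lower. Of 16 ovarian and Mullerian genes, 1 was higher and 4 lower. MECOM, a zinc finger transcription factor, was at 53 and 55.4 CPM in GSK-J5 and 13.9 and 16.4 in GSK-J4 at 48 h, and at 48.6 and 50.1 against 5.71 and 5.76 at 72 h. SOX17, a transcription factor of the Mullerian lineage, had effects of -0.69 and -1.73. WT1, a transcription factor used as a marker of serous carcinoma, had effects of -2.08 and -2.80, and its call was lost without GSK-J5 48 h replicate 1 (difference -0.65, adjusted p = 0.0526). Of 18 epithelial genes, 5 were higher and 3 lower. The keratin KRT7 (0.71) and the small GTPase RAB25 (0.75) were higher, and the protease ST14 (-0.96) and the transcription factor GRHL2 (-0.92) lower. Of 10 mesenchymal genes, SNAI1, a repressor of E-cadherin, was the 1 higher, at 2.70 and 3.04 CPM against 2.52 and 3.39 at 48 h and at 2.77 and 2.05 against 6.08 and 8.46 at 72 h. Of 24 HOX genes, 1 was higher and 3 lower.

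The effect on KDM6B, a target of the compound, was smaller at 72 h. KDM6B (chr17:7839904-7854796) was at 82.3 and 95.4 CPM in GSK-J5 and 148 and 181 in GSK-J4 at 48 h, and at 98.9 and 102 against 104 and 118 at 72 h. The 48 h effect was 0.89 (SE 0.12) and the 72 h effect 0.15 (SE 0.12), which was not called, a difference of -0.74 (interval -1.10 to -0.38, edgeR adjusted p = 0.00663). KDM6A (chrX:44873177-45112602) had effects of 0.32 and -0.08, and its difference of -0.40 (interval -0.76 to -0.04) had an edgeR adjusted p of 0.0928. Of the 13 genes of the KDM6 and PRC2 list, 1 was higher and 3 lower, a called share of 30.8% against 27.0% of all genes. The PRC2 accessory proteins JARID2 (-1.06) and MTF2 (-0.82) were lower, and EZH2 had effects of -0.23 and 0.06 with a difference that was not called. Of 16 other histone lysine demethylases, 1 was higher and 7 lower, with a median of -0.42. KDM4B, which removes methyl groups from lysine 9, was at 61.9 and 67.2 CPM in GSK-J5 and 57.8 and 67.8 in GSK-J4 at 48 h, where the groups overlapped. At 72 h it was at 69.5 and 70.5 against 24.2 and 19.7, a difference of -1.64 (SE 0.17). Its 72 h log2 ratio was -1.52 and -1.84 in the first 2 pairs and 0.015 in replicate 3, on the scale of all 10 libraries. KDM5C, a lysine 4 demethylase, had effects of -0.18 and -1.26.

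Proliferation genes were already low at 48 h. Of 38 DNA replication genes, 37 were lower at 48 h and 33 at 72 h, against 5098 and 6404 of all 17090 genes. Among the 38, 6 had a lower difference and 3 a higher one, shares close to the 15.2% and 11.9% of all genes. The 72 h fall was not seen alike in the second library set. On the scale of all 10 libraries, the list's median log2 ratio was -1.52 and -1.53 in the first 2 pairs at 72 h. It was -0.05 in replicate 3, with 15 of 38 above 0 there, where RRM2 was at 0.15 and MKI67 at -0.72. RRM2, which supplies deoxynucleotides as part of ribonucleotide reductase, was at 292 and 307 CPM against 20.8 and 20.6 at 48 h and at 244 and 244 against 17.5 and 16.9 at 72 h. UHRF1, which maintains DNA methylation, went from 8.89-fold to 22.7-fold lower. Of 33 mitotic genes, 5 were higher and 0 lower, among them CDC20, an activator of the anaphase-promoting complex (-0.11 to 0.67). The median of this list, 0.22, was -0.14 under library totals alone. The proliferation marker MKI67 had effects of -2.12 and -2.40 and a difference that was not called. Of 30 homologous recombination and Fanconi genes, 2 were higher and 4 lower, with FANCA (-1.35) the lowest of the called. Of 22 cyclin, CDK and inhibitor genes, 5 were higher and 6 lower, and of 18 replication-dependent histones 1 and 2.

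The counts that follow stand beside 11.9% higher and 15.2% lower over all genes. Of 24 p53 targets, 2 were higher and 8 lower, with a median of -0.30. MDM2, the ligase that degrades p53, had effects of -0.39 and -1.57, while CDKN1A (p21) had effects of 1.13 and 0.89 and no called difference. Of 15 BCL2 family genes, 2 were higher and 4 lower. The antiapoptotic MCL1 had effects of -0.51 and -1.16, and the proapoptotic BID of 0.65 and 1.34. Of 20 AP-1 and immediate early genes, 0 were higher and 4 lower, IER2 (-1.16) and FOSL2 (-1.02) among them. Of 16 ERK feedback genes, 1 was higher and 2 lower, both of them inhibitors, SPRED1 (-1.43) and SPRY1 (-0.94). Of 23 interferon-stimulated genes, 1 was higher and 3 lower, with OAS1, which senses double-stranded RNA, at -1.62. Of 17 TGF-beta and YAP targets 2 were higher and 3 lower, among them the kinase LATS2 (-0.93). In lipid synthesis, 5 of 24 cholesterol genes were higher and 4 lower, and 1 of 17 fatty acid genes was higher and 4 lower. FASN, fatty acid synthase, was at 1033 and 1114 CPM in GSK-J5 and 493 and 594 in GSK-J4 at 48 h, and at 1036 and 1008 against 211 and 248 at 72 h. Its 72 h log2 ratio was -2.29 and -2.03 in the first 2 pairs and -0.05 in replicate 3, on the scale of all 10 libraries. Of 12 endothelin and neurotrophin genes, 1 was higher and 2 lower.

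Some large effects at 48 h shrank. HKDC1, a hexokinase, rose from 15.0 and 12.9 CPM in GSK-J5 to 99.0 and 90.0 in GSK-J4 at 48 h, and stood at 13.3 and 13.4 against 37.2 and 28.2 at 72 h. SYBU, which links mitochondria to kinesin, was 13.1-fold higher at 48 h and 5.03-fold higher at 72 h. CYP1A1, the aryl hydrocarbon receptor target, was 9.23-fold lower at 48 h and 3.18-fold lower at 72 h, while its GSK-J5 level also went from 13.3 and 13 CPM to 7.54 and 7.59, a change that was not called.

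**Figure D4:**
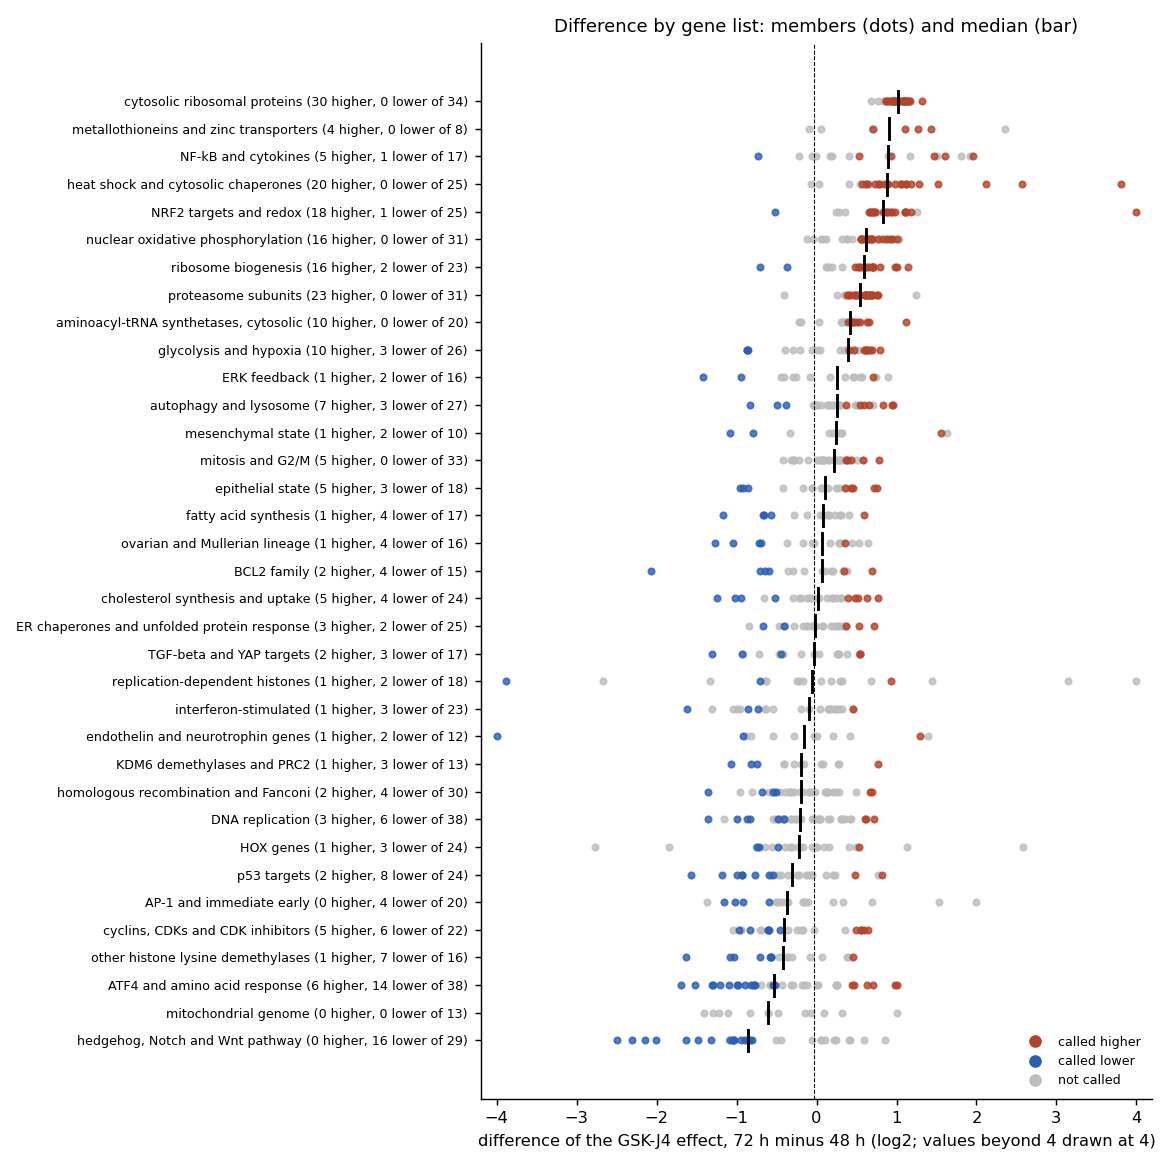
Difference of the GSK-J4 effect, 72 h minus 48 h (log2), for each tested member of 35 gene lists (dots, coloured by call) with the list median (bar) and the median of all genes tested (dashed line, -0.03), with values beyond 4 drawn at 4. Medians are highest for the ribosomal protein, metallothionein, NF-kB, heat shock and NRF2 lists, and the hedgehog, Notch and Wnt list lies at the far left with a median of -0.86.

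Transcript length went with the difference. Among 13814 protein-coding genes, split into 5 bins by the length of their longest transcript, 23.8% of the shortest bin had a higher difference and 3.6% a lower one, against 6.37% and 32.7% of the longest bin. The median length was 2780 bases for genes with a higher difference, 5151 for those with a lower one and 3540 for the rest. The most highly expressed of 5 such bins had 36.1% higher and 16.3% lower, and the least expressed 0.869% and 3.95%. The gene lists above were set against all genes and were not matched for expression or length. With a smooth of each library's deviation on transcript length as an offset, a fit chosen after the data were seen, 2771 genes were higher and 1930 lower. In that fit the medians were 0.95 for the heat shock list, 0.92 for ribosomal proteins, -0.34 for ATF4 targets and -0.65 for hedgehog, Notch and Wnt genes. What lies behind the relation to length was not tested.

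**Figure D5:**
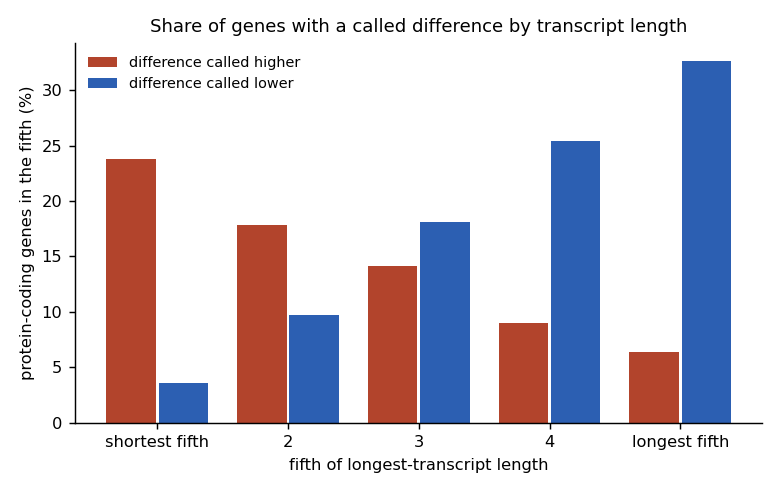
Percent of protein-coding genes with a higher (red) or lower (blue) difference in each of 5 equal bins of longest-transcript length, shortest to longest. Higher calls go from 23.8% to 6.37% and lower calls from 3.6% to 32.7%.

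Scaling and the second library set limit these counts. With library totals alone as the scale, 558 genes were higher and 5035 lower, and the median difference of all genes was -0.39. A fit of all 10 OVCAR-3 libraries, which adds replicate 3 of 72 h from the second set with the set as a covariate, called 1 gene higher and 0 lower in edgeR, with 1279 at an unadjusted p below 0.05. That gene was HSPA1A (2.56, adjusted p = 0.0351). The difference had the other sign in that fit for ATF3 (-0.24), SLC3A2 (-0.0559), SLC30A2 (-0.0645), UHRF1 (0.0673) and WT1 (0.15) among the genes named above. On the scale of all 10 libraries, the median log2 ratio of the heat shock list was 0.72 and 0.89 in the first 2 pairs at 72 h and 0.41 in replicate 3, with 23 of 25 genes above 0 there. For the ATF4 list it was 1.36 and 1.48 in the first 2 pairs and -0.41 in replicate 3, with 6 of 38 above 0. For the ribosomal proteins the values were 1.79, 1.90 and 0.52, and for the hedgehog, Notch and Wnt list -0.81, -0.60 and -0.21. The second set has no 48 h library, so the time difference cannot be formed within it. Set, RNA kit and replicate 3 cannot be told apart.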

How the data were processed

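Each of the 4 samples used here has 2 columns of raw counts in the authors' deposited OVCAR-3 table, whole numbers without normalization for 58825 Ensembl gene IDs. Per the submitters' processing notes, STAR, DESeq2 and GRCh38 (hg38) were used by the authors. Which program counted reads, whether it used strand, and on which annotation, is not given in the sources used here. Gene symbols were found for 58472 IDs in a supplied name table and for 345 more in GENCODE 29. Coordinates came from GENCODE 29 on GRCh38.

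In R 4.3.3, edgeR 4.0.16 kept genes by filterByExpr (minimum count 10), scaled libraries by TMM and fitted 4 groups with glmQLFit (robust). glmQLFTest tested the difference of effects, both effects and the change with time per compound, with Benjamini-Hochberg adjustment over all 17090 genes and a threshold of 0.05. SEs were worked back from the F statistic, and intervals are 95%. CPM values are counts scaled by TMM. Before that scaling, 3 counts correspond to at most 0.123 CPM per library. The TMM factors of 0.785 and 0.772 raise this bound in GSK-J4 at 72 h, where CRB2 stood at 0.157 and 0.153 CPM on 6 counts over both libraries. A check on simulated counts gave every group the same spread, taken from the fit. It therefore cannot show how the test performs where groups differ in spread. DESeq2 1.42.0 and limma 3.58.1 served as alternatives.

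The comparison, its gene lists and the alternatives were chosen with earlier results of these data known. Genes were named as KDM6A, KDM6B, the 8 highest and 8 lowest called differences, the 4 largest of each pattern, and up to 2 called members per list and direction, given a mean of at least 1 log2 CPM and the same sign in both replicates. Other list members named were chosen after their values were seen. Members under the count filter are not in the list counts (26 heat shock genes were listed and 25 tested, for example). Replicate numbers 1 and 2 were not treated as pairs. The CAOV3 and SKOV3 tables were not used here.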

Additional observations from a re-analysis of the deposited data

Results flagged for a closer look

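Results stand here because the effect of GSK-J4 over GSK-J5 at 72 h differed from that at 48 h by the test of the difference itself, with both effects called and of opposite sign. That held for 178 of 17090 genes. Among the named genes, 5 chaperone genes went from lower to higher, with edgeR differences on the log2 scale of 2.57 for HSPA1A, 2.12 for HSPA1B, 1.51 for BAG3, 1.28 for HSPA8 and 1.12 for HSP90AB1. Another 6 went from higher to lower, with differences of -2.52 for KIF26B, -2.25 for TRIL, -1.70 for CHAC1, -1.68 for C10orf88B, -1.64 for GLI2 and -1.31 for CRIM1. Each had the same sign in both replicates, as did every called gene, which adds no separate support. C10orf88B alone of the 11 lost its call without a single library, GSK-J5 48 h replicate 1. Its difference ran from -2.38 to -1.2 over the fits that left out 1 library. In the second library set, whose only time is 72 h, the log2 ratio of GSK-J4 over GSK-J5 was 0.63 for HSPA1A, 0.29 for HSPA1B, 0.19 for BAG3, 0.55 for HSPA8 and 0.11 for HSP90AB1, and -1.66 for CHAC1, 0.17 for KIF26B, -0.04 for TRIL, -0.42 for C10orf88B, -0.52 for GLI2 and -0.26 for CRIM1.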

How the results depend on the processing

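The difference was called for 2030 genes higher and 2591 lower. Upper-quartile and RLE factors, a minimum of 1 log2 CPM, no low-count filter, DESeq2, limma voom and a transcript length offset kept both counts within 1.5 times, though the offset, chosen after the data were seen, turned the split to 2771 higher and 1930 lower. Library totals alone gave 558 higher and 5035 lower, a shift of the scale with a median of -0.39 over all genes, and a test against a fold of 0.5 on the log2 scale gave 311 and 850. All 10 libraries, with the set as covariate, gave 1 and 0. Leaving out 1 library gave 1190 to 2284 higher and 1628 to 2747 lower. The lowest counts were 1190 without GSK-J5 72 h replicate 2, 1205 and 1628 without GSK-J5 48 h replicate 1, and 1300 without GSK-J5 48 h replicate 2. In such fits the lone library is assumed to vary like the other groups. The groups did not vary alike. Between replicates 1 and 2, the chi-square per degree of freedom was 32.61 in GSK-J4 at 48 h and 32.96 at 72 h. In GSK-J5 it was 8.059 at 48 h and 9.753 at 72 h. The edgeR fit shares each gene's spread over all groups, and what this does to the p-values was not tested. Without replicate 1 or replicate 2 as a whole, values have no test.

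With a replicate block the counts were 2433 and 2901, and among named genes only TP53INP1 changed its call. The correlations of the deviations of same-numbered libraries ran from -0.26 to 0.21, the last between GSK-J4 at 48 h and at 72 h. These values do not settle whether the numbers pair the libraries.

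The 48 h effect gave 2630 higher and 3145 lower against the 0.5 fold, and 1969 and 1327 in all 10 libraries. The 72 h effect gave 3290 higher under library totals and 3635 lower in all 10 libraries. Change with time in GSK-J4 gave 1055 and 6421 under library totals, 515 and 1371 against the 0.5 fold, and 2 and 1 in all 10 libraries. Change with time in GSK-J5 gave 13 and 9 without the filter, 1 lower with the replicate block, and 0 to 1 higher when leaving out 1 library. In all 10 libraries the difference changed sign for ATF3 (-0.24), COL1A1 (0.027), FANCD2 (0.0674), GADD45A (-0.52), SLC30A2 (-0.0645), SLC3A2 (-0.0559), UHRF1 (0.0673) and WT1 (0.15), and under library totals for BCL2L1 (-0.008869) and RRM2 (-0.33). The cause was not tested. Of 159 named genes with a call, 117 kept it in every fit that left out 1 library. In the fit of all 10 libraries, 150 of 169 named genes lost their call with the sign kept, and 8 changed sign. Against the 0.5 fold, 75 of the 169 lost their call. With 2 libraries per group and a median SE of 0.22, small differences were not detectable.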
